A study of Pan troglodytes with 8 samples.

Results

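The ephrin, Slit-Robo and netrin families encode the ligands and receptors that steer growing axons and migrating neurons, and their transcripts were followed here across 4 cell populations sorted from chimpanzee cerebral organoids. Genes were taken by symbol, with earlier results of these data known. Of the 60583 named rows of the count table made on the chimpanzee genome (build panTro6), 41 carried a symbol of these families. They are 9 EPHA and 5 EPHB receptors, 5 ephrin-A and 3 ephrin-B ligands, 3 SLIT ligands, 4 ROBO receptors, 4 netrins, 2 netrin-G genes and 6 netrin receptors (DCC, NEO1 and UNC5A to UNC5D). The organoids came from SandraA, a Pan troglodytes induced pluripotent stem cell line, and were cultured for 8 weeks, give or take 3 days. Fluorescence-activated sorting gave 2 libraries each of aRG, the apical radial glia that line the ventricle, bRG, the basal radial glia beyond it, bIP, the basal intermediate progenitors, and N, the neurons, described as BCL11B-positive. All populations share this line, so they stand for a single genetic background, and the labels name no treatment.

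Ephrins are membrane-bound ligands, those of the A class held by a lipid anchor and those of the B class by a transmembrane segment, and they bind Eph receptor tyrosine kinases on neighbouring cells, with signals that can run into both cells. SLIT proteins are secreted repellents read by ROBO receptors. Netrins are secreted cues that attract through DCC and repel through UNC5 receptors, while NEO1, the neogenin receptor related to DCC, also binds repulsive guidance molecules. In the developing cortex these families are known for roles in progenitor adhesion at the ventricle, in the migration of new neurons and in the routing of their axons.

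Library totals lay between 24649971 and 33245892 counts, of which the 41 genes took 0.214% to 0.345%. In every population this share was higher in replicate 2 than in replicate 1. It was 0.214% and 0.283% in aRG, 0.217% and 0.307% in bRG, 0.240% and 0.322% in bIP and 0.284% and 0.345% in N. Levels are in CPM, counts scaled to a common library size with edgeR's TMM factors, and adjusted p-values are those of edgeR's quasi-likelihood test, Benjamini-Hochberg adjusted over all 35382 genes tested, unless another tool is named. The sorted labels were checked on marker sums. The 7 shared radial glia markers summed to 3331 and 3543 CPM in aRG and 2349 and 2284 in bRG, against 578 and 609.6 in bIP and 145 and 90.2 in N. The 6 intermediate progenitor markers summed to 2788 and 3331 CPM in bIP, above all other libraries (394 to 869). The 7 neuronal markers summed to 6430 and 5335 CPM in N, but also to 2998 and 3548 in bIP, against 805 and 1558 in bRG and 337 and 701 in aRG. They include BCL11B, by which N was described, at 488 and 590 CPM in N and 286 and 348 in bIP. Genes higher in bIP than in aRG therefore rose together with neuronal markers, whose part in those rises was not tested. The sum of the 5 basal radial glia markers did not mark bRG, with 508 and 707 CPM there and 578 and 741 in aRG. It was 611 and 741 CPM in bIP and 1100 and 708 in N. Most of it was PTPRZ1, at 358 and 436 CPM in bRG and 1082 and 688 in N. TNC had its highest mean in bRG, at 108 CPM against 88.0 in aRG with overlapping libraries. HOPX, FAM107A and LIFR had theirs in aRG. In aRG replicate 2, choroid plexus markers summed to 3284 CPM and mesenchymal and vascular markers to 2039, against 952 and 399 in aRG replicate 1 and at most 77.6 and 357 in any library of the other populations. In these bulk samples, fewer cells of a type and less RNA per cell cannot be told apart.

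Guidance genes differed most often between neurons and apical radial glia. EPHA2, EPHB4 and EFNB1 were high in radial glia and fell towards N, SLIT1, EPHA5 and UNC5A rose towards N, and ROBO1 and DCC rose from aRG to bIP. Of the 41 genes, 39 passed the filter on low counts, and 32 of them averaged 10 CPM or more where they were highest. Between N and aRG 22 of the 39 passed an adjusted p of 0.05, 14 higher and 8 lower in N, where 9.67% of all genes tested passed (4.87% higher and 4.8% lower). This count fell on leaving out either aRG library, as did the share of all genes. Without aRG replicate 1, only calls higher in N were lost. Without aRG replicate 2, the library with higher choroid plexus and mesenchymal markers, calls were lost in both directions. The part of those markers was not tested. Between N and bRG 14 passed, 8 higher and 6 lower, against 6.01% of all genes (2.62% higher and 3.39% lower). That count fell without bRG replicate 1, as did the share of all genes. Between N and bIP 10 passed, 5 in each direction, against 2.54% of all genes (1.06% higher and 1.48% lower). Between bIP and aRG 9 passed, 6 higher and 3 lower in bIP, against 2.83% of all genes (1.34% higher and 1.5% lower). More passed on leaving out either bRG library, and the share of all genes rose as well. Between bIP and bRG 3 passed, 2 higher and 1 lower, against 1.03% of all genes (0.458% higher and 0.574% lower). Fewer passed without bIP replicate 2, and the share of all genes fell as well. More passed on leaving out any N or aRG library, where that share also rose. More also passed without bRG replicate 2, where that share fell. Over the 4 populations together, 20 genes differed (7.62% of all genes tested). All these counts use the same 8 libraries, so the comparisons share samples. DESeq2 called 22 between N and aRG (16.5% of all genes), 20 between N and bRG (12.3%), 13 between N and bIP (8.29%), 15 between bIP and aRG (7.58%) and 10 between bIP and bRG (5.76%). Among genes that averaged 10 CPM or more where highest, the share past the threshold between N and aRG was 23.4% of 12402 genes, beside 21 of the 32 guidance genes. In the same genes it was 15.3% between N and bRG (14 of the 32) and 6.62% between N and bIP (10 of the 32). It was 7.66% between bIP and aRG (9 of the 32) and 2.89% between bIP and bRG (3 of the 32). Over the 4 populations together it was 19.9%, beside 19 of the 32.

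The median log2 fold change of the 39 genes between N and aRG was 0.72, where that of all genes was −0.08, and the median size regardless of sign was 1.42 against 0.89. By mean level, 16 of the 39 genes peaked in N, 11 in bIP, 9 in aRG and 3 in bRG. Of the 20 that differed over the populations, 9 peaked in N, 6 in bIP, 5 in aRG and 0 in bRG. For all 2695 genes that differed, the shares were 44.7% in N, 11.7% in bIP, 39.1% in aRG and 4.49% in bRG.

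**Figure D1:**
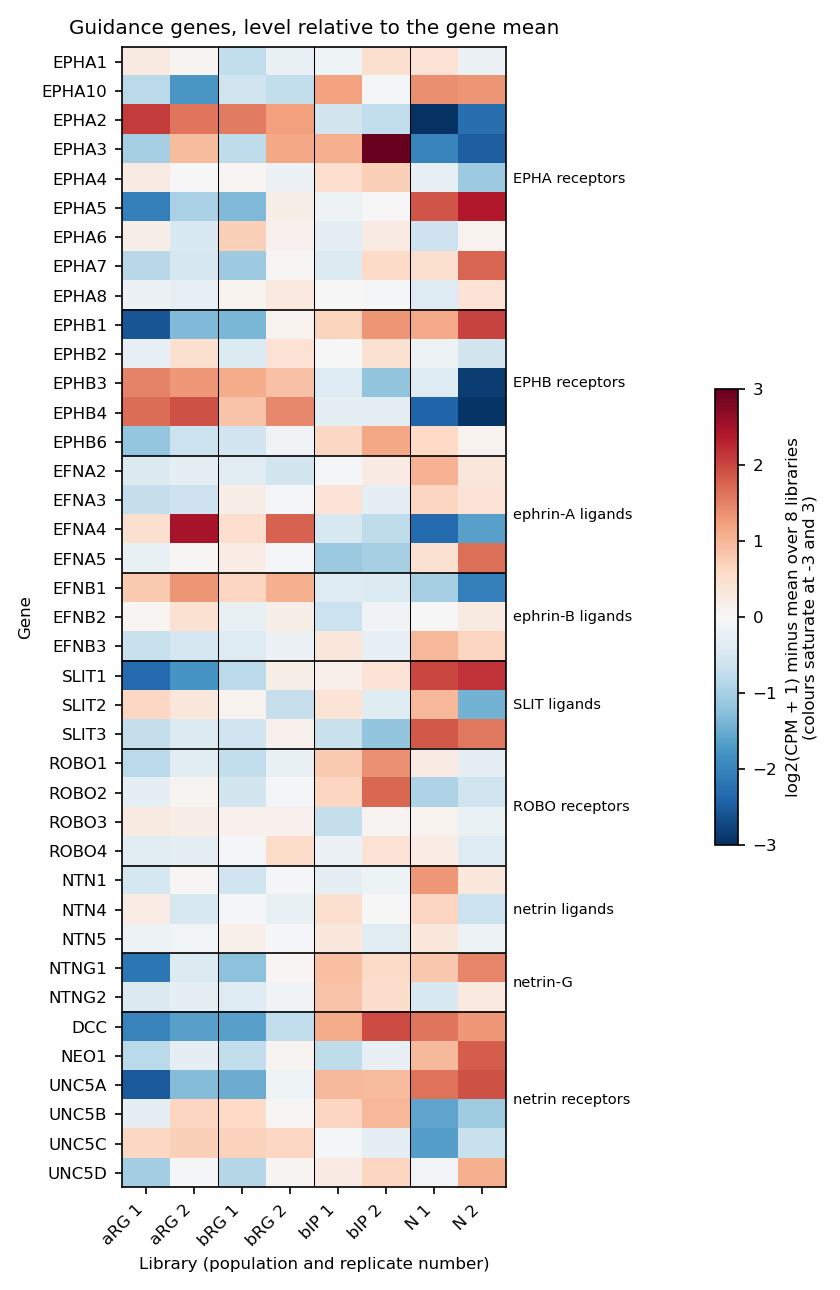
Level of the 39 tested guidance genes in each of the 8 libraries (columns, population and replicate number), as log2(CPM + 1) minus the gene's mean over the libraries, with red above and blue below the mean. EPHA2, EPHB4, EFNA4 and EFNB1 are red in the radial glia and blue in N, SLIT1, EPHA5, UNC5A and DCC are blue in aRG and red in N, and ROBO1, ROBO2 and EPHA3 have their reddest library in bIP.

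Among the ephrin-B ligands EFNB1 and EFNB3 ran in opposite directions, and EFNB2 was not called in any comparison. EFNB1, the X-linked ligand that acts in cell sorting at tissue boundaries, stood at 684 and 1007 CPM in aRG, 628 and 839 in bRG, 307 and 299 in bIP and 200.1 and 95.1 in N. All radial glia libraries were above all bIP libraries, and these above both N libraries. EFNB1 fell from aRG to N (log2 fold change −2.52, SE 0.35, adjusted p = 0.000628) and from bRG to N (−2.31, SE 0.35, adjusted p = 0.00215). Its fall from aRG to bIP (−1.48, SE 0.34, adjusted p = 0.0379) was no longer called without aRG replicate 2 (adjusted p = 0.172), bIP replicate 1 (0.141) or bIP replicate 2 (0.183). EFNB3, a ligand known from the midline and from cortical axons, stood at 76.9 and 86.9 CPM in aRG, 94.1 and 109 in bRG, 156 and 103 in bIP and 245 and 192 in N. Both N libraries were above every other library. The rise from aRG to N was 1.42 (SE 0.28, adjusted p = 0.00595), which missed the threshold without aRG replicate 1 (adjusted p = 0.0602). The rise from bRG to N was 1.10 (SE 0.28, adjusted p = 0.0356), which did not pass without bRG replicate 1 (0.261), bRG replicate 2 (0.0900) or N replicate 1 (0.162). EFNB2, a ligand shared by vessels and neural progenitors, stood at 250.1 and 330.1 CPM in aRG, 205 and 275 in bRG, 155 and 225 in bIP and 243 and 293 in N. The smallest of its 6 adjusted p-values was 0.372, between bIP and aRG.

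The ephrin-A ligands also split. EFNA4 was a transcript of radial glia, at 7.12 and 31.2 CPM in aRG, 7.20 and 18.8 in bRG, 3.15 and 2.40 in bIP and 0.155 and 0.863 in N. Every radial glia library was above every bIP and N library, although the libraries within each radial glia population differed by more than the means of those populations. EFNA4 and EFNB1 were both higher in aRG replicate 2, as were its choroid plexus and mesenchymal markers, whose part in the difference was not tested. EFNA4 fell from aRG to N (log2 fold change −5.24, SE 0.93, adjusted p = 0.003) and from bRG to N (−4.68, SE 0.91, adjusted p = 0.00921). RefSeq places the protein-coding gene ADAM15 over part of the EFNA4 locus, and ADAM15 was at 62.1 and 72.7 CPM in aRG and 45.3 and 86.3 in N, where the groups overlapped.

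EFNA5, EFNA3 and EFNA2 had their highest means in N. EFNA5, a repellent used in topographic mapping, stood at 32.4 and 38.8 CPM in aRG, 44.0 and 36.4 in bRG, 17.1 and 18.4 in bIP and 52.4 and 121 in N. It was lowest in bIP, and the rise from bIP to N was 2.29 (SE 0.38, adjusted p = 0.00752). Its rise of 1.28 from aRG to N (SE 0.37, adjusted p = 0.046) rested on N replicate 2, without which it was 0.56 (adjusted p = 0.501), and the call was also lost without aRG replicate 1 (0.241) or aRG replicate 2 (0.111). EFNA3 was at 17.8 and 18.9 CPM in aRG, 34.4 and 28.3 in bRG, 39.4 and 24.1 in bIP and 47.1 and 39.9 in N. The step from aRG to N was 1.25 (SE 0.33, adjusted p = 0.032), and leaving out any of the 4 libraries compared ended the call (adjusted p = 0.0568 to 0.185). EFNA2 ranged from 10.9 to 19.9 CPM in the 6 progenitor libraries and was at 35.4 and 21.1 in N, with a smallest adjusted p of 0.0817, between N and bRG. EFNA1 was listed at 0 in all 8 libraries of this table. That 0 belongs to the table and sets no limit on the transcript, since the same libraries gave 210 to 822 EFNA1 counts on the human genome.

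**Figure D2:**
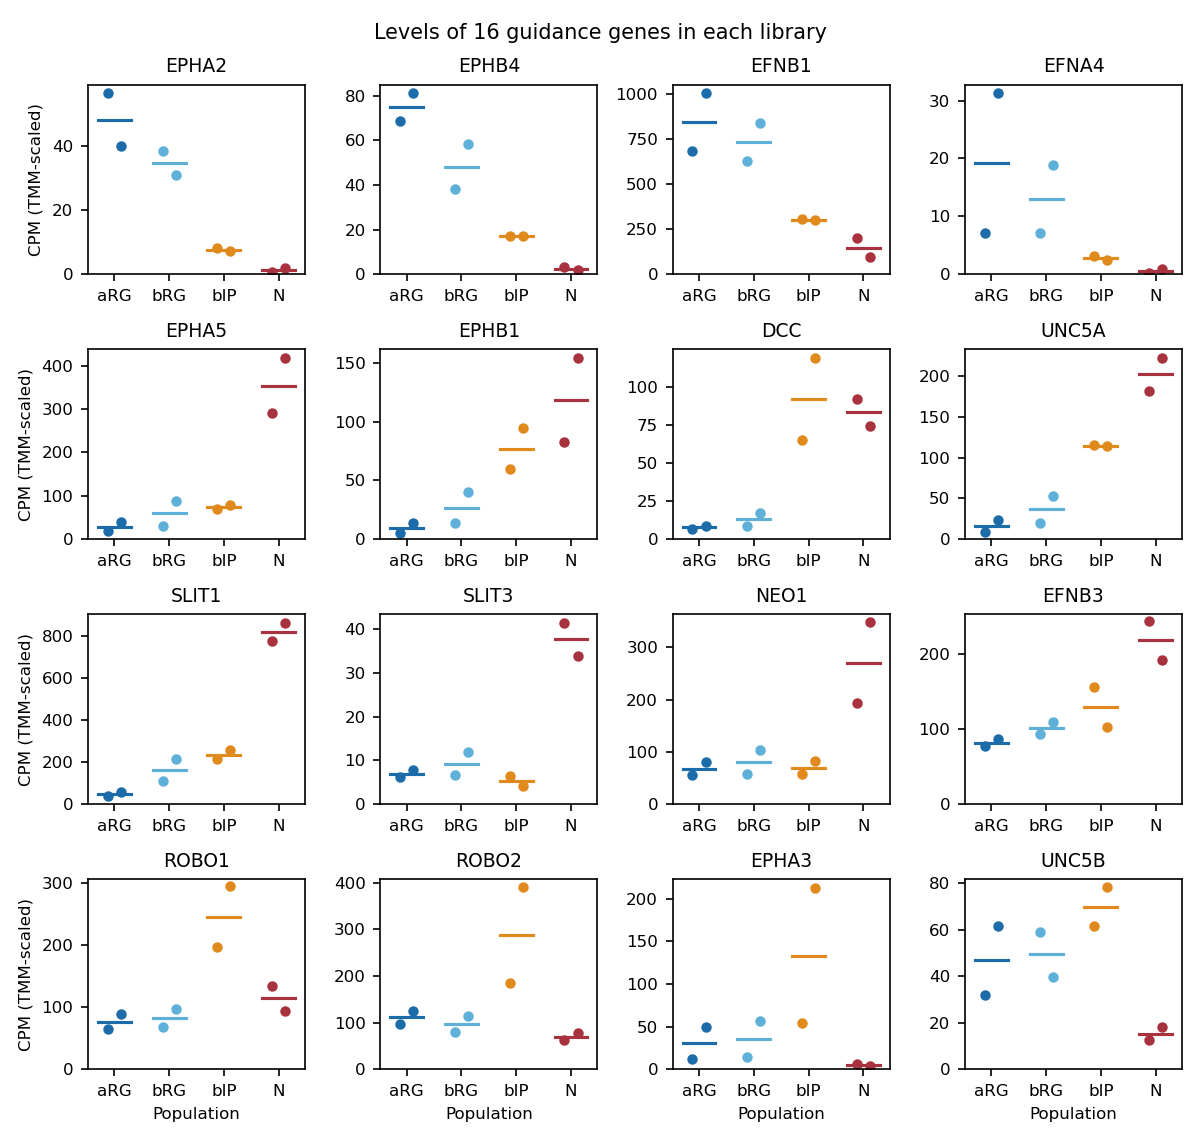
CPM of 16 guidance genes in each library (points, replicate 1 left and replicate 2 right) with the population mean of 2 libraries (bar), on linear axes that start at 0 and differ between genes. The first row holds genes high in radial glia, such as EPHA2 at 56.2 and 39.9 CPM in aRG, the rows in the middle genes high in N or in bIP and N, and the last row genes with the highest mean in bIP.

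Receptors of the EPHA class changed in both directions. EPHA2, an Eph receptor of epithelia and progenitors, was at 56.2 and 39.9 CPM in aRG, 38.4 and 30.7 in bRG, 8.23 and 7.12 in bIP and 0.735 and 1.81 in N. The 4 populations did not overlap, and the order was aRG, bRG, bIP, N. EPHA2 fell from aRG to N (log2 fold change −5.24, SE 0.49, adjusted p = 3.98e-05), from bRG to N (−4.77, SE 0.48, adjusted p = 0.000106) and from bIP to N (−2.60, SE 0.45, adjusted p = 0.00938). The latter was not called when only bIP and N were fitted (0.118). It also fell from aRG to bIP (−2.65, SE 0.42, adjusted p = 0.00513). Its fall from bRG to bIP (−2.17, SE 0.42, adjusted p = 0.0292) was lost without bRG replicate 1 (adjusted p = 0.0811), bIP replicate 1 (0.0956) or bIP replicate 2 (0.182). The step of −0.48 between bRG and aRG was not past the threshold (adjusted p = 1). Marker sums of mesenchyme and vessels fell in the same order of populations, from 399 and 2039 CPM in aRG to 42.5 and 23.3 in N. Within aRG, EPHA2 was higher in replicate 1, where this sum was lower. PECAM1, a low marker of the same list, was its exception, with the lowest mean in aRG (1.81 CPM) and the highest in N (3.39). All other markers of that list had their highest mean in aRG and their lowest in N. Among them, CLDN5 went from 12.7 to 0.372 CPM and PDGFRB from 135 to 19.7. The part of these markers in the EPHA2 differences was not tested.

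EPHA5 and EPHA7, receptors of neurons that read ephrin-A gradients, had their highest means in N. EPHA5 stood at 18.2 and 39.2 CPM in aRG, 30.7 and 88.7 in bRG, 70.4 and 78.9 in bIP and 290.4 and 418 in N. Both N libraries were above all others, while bRG overlapped with aRG and with bIP. It rose by 3.62 from aRG to N (SE 0.50, adjusted p = 0.000568) and by 2.57 from bRG to N (SE 0.48, adjusted p = 0.00721). The rise of 2.25 from bIP to N (SE 0.47, adjusted p = 0.0269) was lost without bIP replicate 1 (0.0924), bIP replicate 2 (0.0980) or N replicate 2 (0.0845). The antisense-named row EPHA5-AS1, which unstranded reads cannot separate from its partner, was at 0.669 to 1.80 CPM in the radial glia and at 6.65 and 7.72 in N. EPHA7 stood at 55.2 and 69.5 CPM in aRG, 46.4 and 102 in bRG, 74.2 and 147 in bIP and 139 and 337 in N. Its N and bIP libraries overlapped, and it was not called over the 4 populations together (adjusted p = 0.0537). Its rise of 1.93 from aRG to N (SE 0.48, adjusted p = 0.0223) was lost without aRG replicate 1 (adjusted p = 0.113) or N replicate 2 (0.187, with a log2 fold change of 1.16).

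EPHA3, a receptor for ephrin-A ligands, peaked in bIP and was lowest in N. It stood at 12.0 and 49.2 CPM in aRG, 14.2 and 56.6 in bRG, 53.6 and 213 in bIP and 5.49 and 3.63 in N. In each progenitor population the library numbered 2 was the higher. It fell from bIP to N (log2 fold change −4.87, SE 0.87, adjusted p = 0.0114), with an adjusted p of 0.0535 without N replicate 2. The fall from aRG to N (−2.75, SE 0.80, adjusted p = 0.0493) was lost without aRG replicate 2, at −1.42 (adjusted p = 0.330), without N replicate 1 (0.0865) or N replicate 2 (0.183), and by DESeq2 (0.0623). EPHA4, a receptor that binds ligands of both classes, stood at 87.1 and 74.5 CPM in aRG, 76.3 and 65.3 in bRG, 104 and 122 in bIP and 61.6 and 33.7 in N. Both bIP libraries were above and both N libraries below all others, and the difference of −1.24 between them missed the threshold (adjusted p = 0.0593). EPHA10, an Eph receptor without a catalytically active kinase, had means of 0.806 CPM in aRG and 9.69 in N. It rose by 3.60 (SE 0.84, adjusted p = 0.0166), which missed the threshold when aRG replicate 2 was left out (adjusted p = 0.0908).

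Of the 5 EPHB receptors, EPHB4 and EPHB3 fell and EPHB1 and EPHB6 rose from aRG to N, while EPHB2 was not called. EPHB4, a receptor of EFNB2 best known from vessels, was at 68.5 and 81.0 CPM in aRG, 38.1 and 58.4 in bRG, 17.1 and 17.1 in bIP and 3.09 and 1.86 in N. The populations did not overlap. It fell from aRG to N (log2 fold change −4.91, SE 0.40, adjusted p = 1.4e-05), from bRG to N (−4.28, adjusted p = 4.74e-05) and from bIP to N (−2.78, adjusted p = 0.00192). EPHB4 also fell from aRG to bIP (−2.13, SE 0.35, adjusted p = 0.00568), and the step of −1.50 from bRG to bIP missed the threshold (adjusted p = 0.0651). EPHB3 stood at 138 and 120.0 CPM in aRG, 105 and 88.8 in bRG, 36.7 and 20.7 in bIP and 36.5 and 5.87 in N. Its bIP and N libraries overlapped, and its fall from aRG to N (−2.60, SE 0.61, adjusted p = 0.0174) was not called when only those 2 populations were fitted (0.0601).

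EPHB1, which guides retinal and callosal axons, stood at 5.43 and 14.2 CPM in aRG, 13.6 and 40.3 in bRG, 59.7 and 94.6 in bIP and 82.4 and 154 in N. All bIP and N libraries were above all radial glia libraries. EPHB1 rose by 3.58 from aRG to N (SE 0.59, adjusted p = 0.00178) and by 2.97 from aRG to bIP (SE 0.57, adjusted p = 0.0148), the second of these at 2.39 without aRG replicate 1 (adjusted p = 0.0629). Its rise of 2.13 from bRG to N (SE 0.55, adjusted p = 0.0404) was lost without bRG replicate 1 (0.178) or N replicate 2 (0.176) and on the human genome table (0.0524). EPHB6, a receptor whose kinase domain is inactive, stood at 18.2 and 26.7 CPM in aRG, 27.9 and 39.3 in bRG, 65.6 and 96.4 in bIP and 64.8 and 45.6 in N. It was highest in bIP, with a rise of 1.85 over aRG (SE 0.34, adjusted p = 0.0114) that was lost without aRG replicate 1 (0.0894) or bIP replicate 2 (0.0813). The rise of 1.30 from aRG to N (SE 0.34, adjusted p = 0.0286) was lost without aRG replicate 1 (0.234) or N replicate 1 (0.147). EPHB2 ranged from 52.8 to 108 CPM over the 8 libraries, and its smallest adjusted p was 0.467, between N and aRG.

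**Figure D3:**
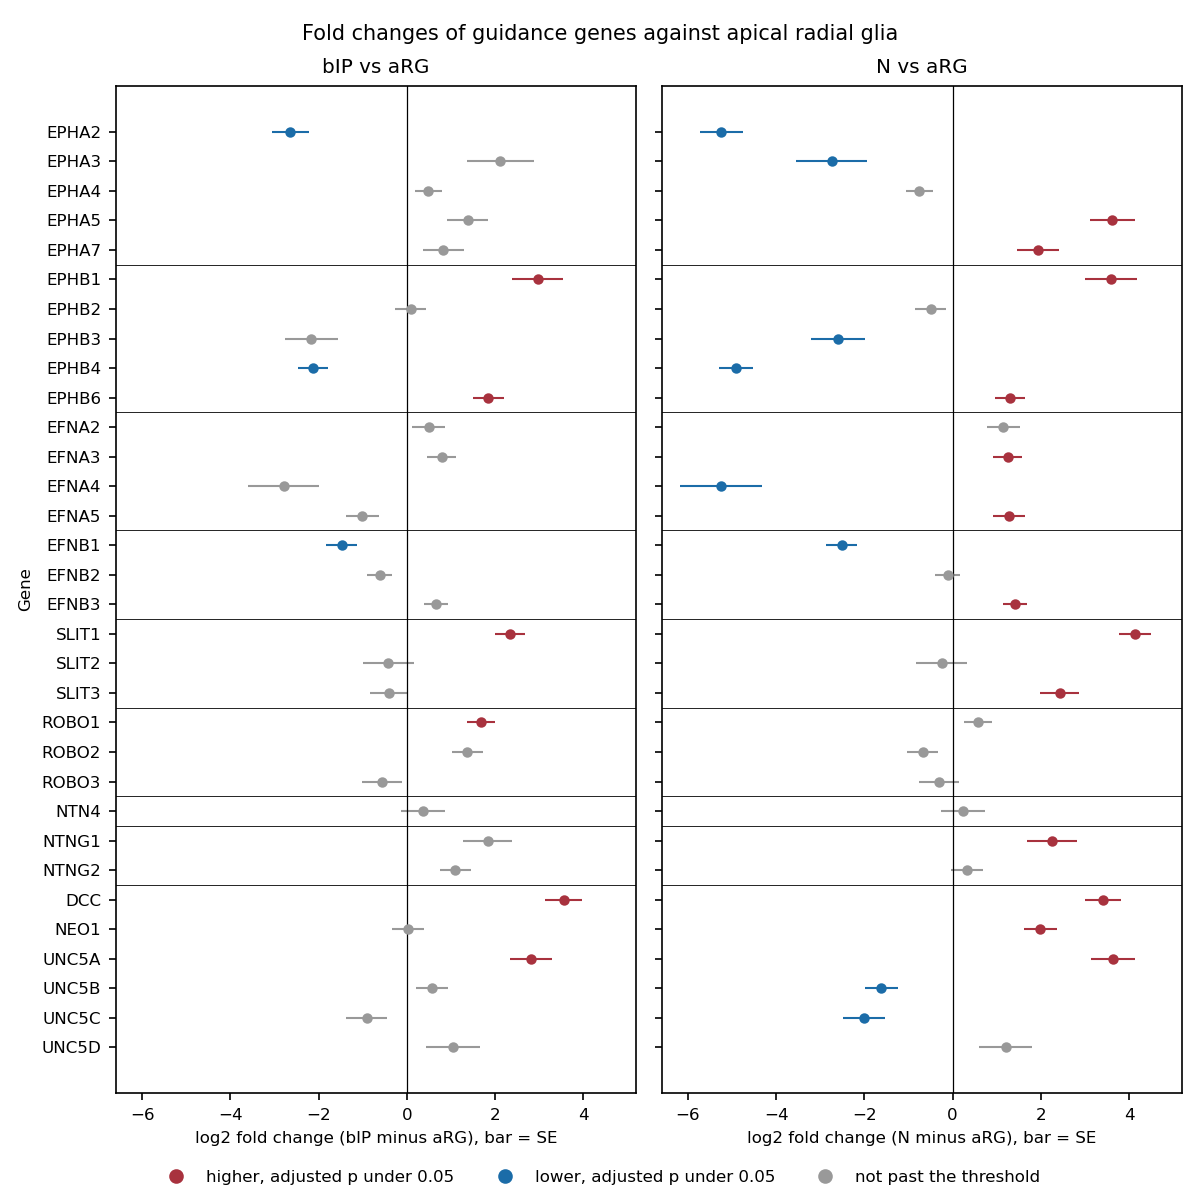
Log2 fold change with its standard error for the 32 guidance genes with at least 10 CPM in their highest population in family blocks, from EPHA at the top to netrin receptors at the bottom, for bIP minus aRG on the left and N minus aRG on the right. Red and blue mark genes past an adjusted p of 0.05, which are 9 on the left and 21 on the right, and both panels share the aRG libraries.

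SLIT1, a secreted repellent of forebrain axons, rose from aRG through bIP to N. It stood at 37.4 and 56.2 CPM in aRG, 109 and 216 in bRG, 215 and 258 in bIP and 779 and 862 in N. Only bRG and bIP overlapped. SLIT1 rose by 4.13 from aRG to N (SE 0.37, adjusted p = 2.97e-05), by 2.34 from bRG to N (SE 0.34, adjusted p = 0.00167) and by 2.33 from aRG to bIP (SE 0.34, adjusted p = 0.00308). The rise of 1.80 from bIP to N (SE 0.33, adjusted p = 0.0137) was lost without bIP replicate 1 (0.0737) or bIP replicate 2 (0.0586). The row SLIT1-AS1 was at most 2.12 CPM in any library. SLIT3 was a transcript of neurons, at 6.14 and 7.87 CPM in aRG, 6.71 and 11.9 in bRG, 6.37 and 4.17 in bIP and 41.5 and 33.9 in N. The 6 progenitor libraries lay well below both N libraries, with a rise of 2.84 from bIP (SE 0.45, adjusted p = 0.00565) and 2.43 from aRG (SE 0.44, adjusted p = 0.00336). The rise of 2.02 from bRG (SE 0.43, adjusted p = 0.0152) was lost without bRG replicate 1 (0.172) or N replicate 1 (0.0641).

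SLIT2 did not follow the other SLIT genes. It stood at 85.1 and 69.0 CPM in aRG, 58.8 and 33.6 in bRG, 72.8 and 42.6 in bIP and 109.9 and 19.8 in N, so the N libraries held both the highest and the lowest value. In every population the library numbered 1 was the higher, and the smallest of the 6 adjusted p-values was 0.747, with a log2 fold change of 0.49 between N and bRG.

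ROBO1 and ROBO2 peaked in intermediate progenitors. ROBO1, a receptor of SLIT proteins on migrating neurons and axons, stood at 64.1 and 89.3 CPM in aRG, 67.7 and 96.9 in bRG, 197 and 295 in bIP and 134 and 94.3 in N. Both bIP libraries were above all others. ROBO1 rose by 1.68 from aRG to bIP (SE 0.32, adjusted p = 0.0134) and by 1.58 from bRG to bIP (SE 0.32, adjusted p = 0.0381). The first call was lost without aRG replicate 1 (0.0991) or bIP replicate 2 (0.107), and the second without bRG replicate 1 (0.218) or bIP replicate 2 (0.274). ROBO2, its close relative, stood at 97.2 and 126 CPM in aRG, 80.5 and 114 in bRG, 186 and 391 in bIP and 61.5 and 77.7 in N. Its libraries were also highest in bIP, and lowest in N. It fell from bIP to N (log2 fold change −2.05, SE 0.36, adjusted p = 0.0102), at −1.42 without bIP replicate 2 (adjusted p = 0.0794). The differences of 1.37 from aRG to bIP and 1.57 from bRG to bIP missed the threshold (adjusted p = 0.0617 and 0.0613). For ROBO1 the difference of −1.11 from bIP to N also missed it (adjusted p = 0.0973). ROBO3, the divergent receptor that lets axons cross the midline, ranged from 4.74 to 10.3 CPM with no call, and ROBO4, the receptor of vessels, from 0.302 to 1.48.

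The secreted netrins and NTNG2 were not called in any comparison, and NTNG1 rose from aRG to N. NTN1, the classical netrin of the floor plate, ranged from 1.82 to 3.36 CPM in the progenitors and was at 9.51 and 4.36 in N, above all other libraries but with a smallest adjusted p of 0.245. NTN4, a netrin of basement membranes, ranged from 7.12 to 18.8 CPM, and both ends of that range were N libraries. NTN5 was at most 0.544 CPM, and NTN3, which did not pass the filter on low counts, at most 0.236. The low NTN5 level belongs to the chimpanzee genome, since on the human genome the same libraries gave 2.27 to 29.4 CPM. NTNG1 and NTNG2 encode lipid-anchored relatives that bind synaptic LRRC4 proteins and not DCC or UNC5. NTNG1 stood at 8.54 and 31.2 CPM in aRG, 17.3 and 43.6 in bRG, 79.6 and 62.4 in bIP and 73.4 and 117 in N, with bIP and N overlapping above the radial glia. It rose by 2.26 from aRG to N (SE 0.56, adjusted p = 0.023), a call lost without aRG replicate 1 (0.104) or N replicate 2 (0.0818). NTNG2 was at 39.5 and 31.2 CPM in bIP, above all other libraries, which ranged from 15.3 to 26.2 (smallest adjusted p = 0.16, between bIP and aRG).

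Of the netrin receptors DCC and UNC5A rose from aRG to bIP, NEO1 rose in N, and UNC5B and UNC5C fell in N. DCC, the attractive receptor, stood at 6.69 and 8.96 CPM in aRG, 8.95 and 17.3 in bRG, 65.4 and 119 in bIP and 92.2 and 74.5 in N. The bIP and N libraries overlapped and were all above the radial glia. DCC rose by 3.55 from aRG to bIP (SE 0.41, adjusted p = 0.0009), by 2.81 from bRG to bIP (SE 0.40, adjusted p = 0.00797) and by 3.41 from aRG to N (SE 0.41, adjusted p = 0.000222). From bRG to N it rose by 2.67 (SE 0.40, adjusted p = 0.00191), and between N and bIP the difference was −0.14 (SE 0.37, adjusted p = 0.906).

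UNC5A, a repulsive receptor of neurons, stood at 9.32 and 23.0 CPM in aRG, 20.0 and 53.0 in bRG, 115 and 114 in bIP and 182 and 222 in N. Only aRG and bRG overlapped. It rose by 2.82 from aRG to bIP (SE 0.48, adjusted p = 0.00758), by 3.64 from aRG to N (SE 0.50, adjusted p = 0.000531) and by 2.47 from bRG to N (SE 0.47, adjusted p = 0.00841). RefSeq places HK3, a hexokinase, over part of this locus, and HK3 was at 0.275 to 4.23 CPM. NEO1 stood at 55.6 and 80.6 CPM in aRG, 58.2 and 103 in bRG, 57.1 and 81.9 in bIP and 193 and 348 in N. The progenitors overlapped with one another, and both N libraries were above them. NEO1 rose in N by 1.99 over aRG (SE 0.38, adjusted p = 0.00475). The rises of 1.96 over bIP (SE 0.38, adjusted p = 0.0166) and 1.74 over bRG (SE 0.37, adjusted p = 0.0158) were lost without N replicate 2 (0.0903 and 0.106), and without bIP replicate 1 (0.0882) or bRG replicate 1 (0.114) in turn.

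UNC5B and UNC5C moved against UNC5A. UNC5B, which also acts in vessels and as a dependence receptor, stood at 31.8 and 61.7 CPM in aRG, 59.1 and 39.5 in bRG, 61.4 and 78.4 in bIP and 12.3 and 18.2 in N. The N libraries were below all others, and it fell from bIP to N (log2 fold change −2.20, SE 0.38, adjusted p = 0.0102). The fall from aRG to N (−1.62, SE 0.38, adjusted p = 0.0159) was lost without aRG replicate 2 (0.146, at −1.08) or N replicate 1 (0.0925). That from bRG to N (−1.69, SE 0.38, adjusted p = 0.0192) was lost without bRG replicate 1 (0.0967) or N replicate 1 (0.0990). UNC5C, a receptor for repulsion of crossed and spinal axons, was at 14.6 to 15.9 CPM in the 4 radial glia libraries, 8.97 and 7.32 in bIP and 2.24 and 5.39 in N. Its falls from aRG to N (−2.01, SE 0.48, adjusted p = 0.0195) and from bRG to N (−1.98, SE 0.48, adjusted p = 0.0312) were lost without N replicate 1 (0.114 and 0.155). The first was also lost without aRG replicate 2 (0.0666), the second without bRG replicate 1 (0.116) or bRG replicate 2 (0.0657). UNC5D, a receptor of migrating cortical neurons, ranged from 3.07 to 16.3 CPM with no call (smallest adjusted p = 0.278, between N and aRG).

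Between basal and apical radial glia 0 of the 39 genes passed with edgeR, against 0.00283% of all genes, and DESeq2 called 1, SLIT1, against 0.435% of all genes. At an unadjusted p under 0.05 there were 5 (3.73% of all genes), all higher in bRG, namely SLIT1, EPHB1, UNC5A, EPHA5 and EFNA3. SLIT1 was higher in bRG by 1.80 on the log2 scale (SE 0.33, edgeR adjusted p = 0.474, DESeq2 adjusted p = 0.00262), at 109 and 216 CPM against 37.4 and 56.2, and without bRG replicate 1 edgeR called it (adjusted p = 0.00815). EFNA3 was higher in both bRG libraries as well, by 0.77 (SE 0.33), while the libraries of EPHB1 (1.45, SE 0.54), UNC5A (1.17, SE 0.46) and EPHA5 (1.05, SE 0.46) overlapped, each with an adjusted p of 1. Neuronal markers summed to 805 and 1558 CPM in bRG and 337 and 701 in aRG, and their part in these differences was not tested. The median log2 fold change was 0.17 for the 39 genes and 0.02 for all genes.

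On the chimpanzee genome, the tested genes under 10 CPM in every population were EPHA1, EPHA6, EPHA8, EPHA10, NTN1, NTN5 and ROBO4. EPHA10 was the only one of them called. EPHA1 lay between 0.519 and 2.56 CPM, beside 1.61 to 5.84 for its antisense-named row EPHA1-AS1. EPHA6 lay between 2.47 and 7.78 CPM, and EPHA8 between 0 and 0.734.

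Partners of these ligands and receptors, whether inside the cell, in the membrane or secreted, were followed in 3 lists. Of 18 ephrin signalling partners 3 rose and 1 fell from aRG to bIP, and 3 rose and 2 fell from aRG to N. Of all genes tested, 1.34% rose and 1.5% fell from aRG to bIP, and 4.87% rose and 4.8% fell from aRG to N. GRIP1, a scaffold that binds ephrin-B tails, was at 14.5 and 21.3 CPM in aRG, 51.4 and 87.0 in bIP and 61.2 and 59.8 in N (log2 fold change to N 1.75, SE 0.33, adjusted p = 0.00463). KALRN was at 62.5 and 63.9 CPM in aRG, 151 and 177 in bIP and 122 and 126 in N, a rise of 1.38 to bIP (SE 0.24, adjusted p = 0.00906). GRB10, an adaptor, and VAV3, an exchange factor, fell from aRG to N (−1.65, SE 0.29, adjusted p = 0.00253, and −1.55, SE 0.35, adjusted p = 0.0128). Of these calls GRB10 held without any single library. GRIP1 was lost without aRG replicate 1 (0.0562), VAV3 without aRG replicate 2 (0.0747) or N replicate 2 (0.0811), and KALRN without aRG replicate 1 (0.0726), aRG replicate 2 (0.0552) or bIP replicate 2 (0.0788).

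Of 16 Slit-Robo partners 0 were called by edgeR between bIP and aRG, where 2.83% of all genes were. At an unadjusted p under 0.05 there were 3 (13.3% of all genes), and DESeq2 called 3 (7.58% of all genes). From aRG to N 2 rose and 1 fell, where 9.67% of all genes were called. SRGAP1, a GTPase-activating protein that binds ROBO, was at 112 and 124 CPM in aRG, 124 and 203 in bRG, 219 and 295 in bIP and 446 and 713 in N (aRG to N 2.30, SE 0.33, adjusted p = 0.000656). NELL2, a ligand of ROBO3, was at 16.3 and 47.5 CPM in aRG and 295 and 365 in N (3.37, SE 0.51, adjusted p = 0.00111). FLRT3, a membrane protein that binds ROBO1 and UNC5 receptors, fell by 1.54 (SE 0.42, adjusted p = 0.0381) and was highest in bIP, at 185 and 174 CPM. The fall of FLRT3 was lost without aRG replicate 1 (adjusted p = 0.139) or N replicate 2 (0.179, at −0.97), while SRGAP1 and NELL2 held without any single library.

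Of 18 netrin partners 0 were called by edgeR between bIP and aRG (2.83% of all genes). At an unadjusted p under 0.05 there were 7 (13.3% of all genes), and DESeq2 called 3 (7.58% of all genes). From aRG to N 6 rose and 4 fell (9.67% of all genes were called). DRAXIN, a secreted protein that binds netrin and DCC, was at 80.0 and 132 CPM in aRG, 96.2 and 203 in bRG, 226 and 216 in bIP and 463 and 735 in N (2.50, SE 0.39, adjusted p = 0.00122). LRRC4C, the ligand of NTNG1, ran the other way from it, from 52.1 and 47.4 CPM in aRG to 7.58 and 5.96 in N (−2.88, SE 0.32, adjusted p = 0.000135). MYO10, a filopodial motor that carries DCC, fell from 473 and 484 CPM to 124 and 86.9 (−2.18, SE 0.26, adjusted p = 0.000195), and DOCK1, an activator of Rac downstream of DCC, from 16.2 and 19.4 to 3.29 and 1.21 (−2.98, SE 0.52, adjusted p = 0.00284). These 4 calls held without any single library. The medians of the 3 lists between N and aRG were 0.20, 0.46 and 0.83 in the order given, against −0.08 for all genes.

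The same 8 libraries had also been counted on the human genome (hg38). Of the 41 genes 40 were in that table, and EFNB1 was not. The log2 ratio of the chimpanzee over the human table, with 1 CPM added to both and totals taken over shared symbols, had a median of 0.05 over the 40 genes and stayed within 1 of 0 in at least 1 library for 38 of them. Of 15123 symbols with at least 1 CPM in either table, 5.52% were past 1 in the same direction in all 8 libraries. For the guidance genes these were EFNA1 and NTN5, both lower on the chimpanzee genome. EFNA1, the ephrin-A ligand listed at 0 in the chimpanzee table, had 210 to 822 counts in the human table, at 23.7 and 31.2 CPM in aRG, 22.8 and 32.2 in bRG, 32.8 and 17.8 in bIP and 43.8 and 72.4 in N. Both N libraries were above all progenitor libraries, and the difference of 1.08 from aRG to N missed the threshold on that table (SE 0.39, adjusted p = 0.0775). NTN5 had 0 to 14 counts on the chimpanzee and 38 to 379 on the human genome, with the library numbered 1 the higher in every population of the human table. EPHA8 had 0 to 19 and 20 to 111 counts, with a ratio between −2.48 and −0.75. EPHB2 had a median ratio of −0.50 and a lowest ratio of −1.12.

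**Figure D4:**
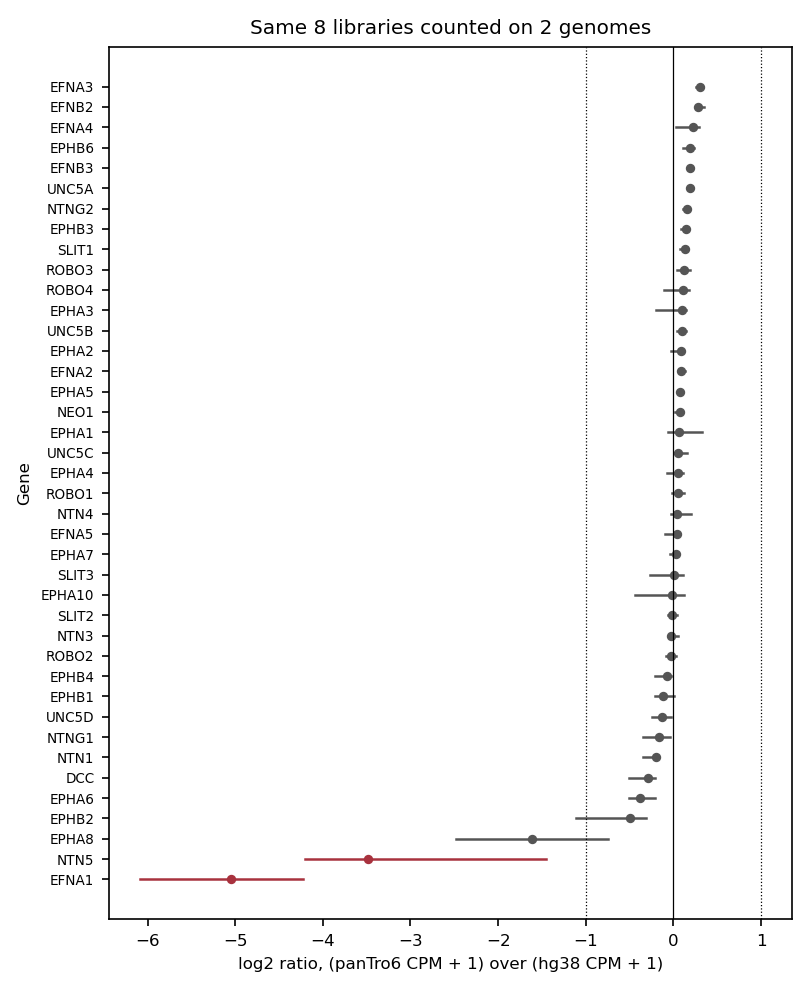
Log2 ratio of CPM on the chimpanzee over the human genome, 1 CPM added to both, for the 40 guidance genes in both tables (points are medians over the 8 libraries, lines run from the lowest to the highest library, dotted lines mark −1 and 1). EFNA1 and NTN5, in red, are past −1 in every library, EPHA8 in most and EPHB2 in at least 1 (lowest ratio −1.12), while the other genes stay between the dotted lines in every library.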

How the data were processed

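Bulk RNA-seq libraries were made from the RNA of 10000 sorted cells by a Smart-seq2 type protocol with 12 to 17 PCR cycles, per the labels' protocols, a chemistry that does not mark strand and has no molecular identifiers. The authors deposited unnormalized gene counts of the same libraries for 2 genomes, and the submitters' processing notes name STAR, panTro6 and hg38. For the counting tool, its annotation and its handling of read mates the sources used here give nothing. A row without a gene name held 0.00545% to 0.00771% of counts and was left out. Members were the rows whose symbol named an ephrin, Eph receptor, SLIT, ROBO, netrin or netrin receptor gene, and the members and lists were chosen with earlier results of these data known. Members that averaged 10 CPM or more where they were highest are given per library and the others by range; of each partner list up to 4 genes past the threshold with the smallest adjusted p between bIP or N and aRG are named. The counts were filtered with filterByExpr, scaled by TMM and tested with edgeR 4.0.16 in R 4.3.3 (glmQLFit and glmQLFTest, all 8 libraries, no block, 4 residual degrees of freedom) over the 6 pairs of populations and over all 4 at once, with Benjamini-Hochberg adjustment and a threshold of 0.05. SE is the log2 fold change divided by the square root of F. DESeq2 1.42.0 and the other settings of the closing section were alternatives. Their use on the partner genes was chosen after seeing the data. The scripts were tested on simulated data. The labels do not say whether a population's 2 libraries are separate cultures. The p-values therefore rest on a spread that may be technical. Gene overlaps were read from RefSeq on another chimpanzee assembly, where 40 of the 41 symbols were found, and no coordinates of it are used.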

Additional observations from a re-analysis of the deposited data

Results flagged for a closer look

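EFNA1, the founding ephrin-A ligand, had 0 counts in all 8 libraries on the chimpanzee genome and at least 210 counts in each library on the human genome, up to 822. The comparisons above use the chimpanzee table, so this signal entered none of them. On the human table N was higher than aRG by 1.08 (SE 0.39, edgeR adjusted p = 0.0775), and the comparisons with bRG and bIP were not past the threshold either.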

How the results depend on the processing

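Of 58 calls of a gene in a comparison, 29 (from 13 genes) were kept in every alternative run, 29 were lost in at least 1, 27 of them on leaving out a library, and 0 reversed. With 2 libraries a population, a left-out library leaves a lone sample that is assumed to vary like the other populations. Leaving out each library in turn gave 16 to 22 calls between N and aRG, 9 to 19 between N and bRG, 7 to 13 between N and bIP, 6 to 15 between bIP and aRG, 1 to 7 between bIP and bRG, 0 to 1 between bRG and aRG, and 18 to 22 over all populations. DESeq2 called 15 between bIP and aRG, 10 between bIP and bRG and 1 between bRG and aRG. Without a filter on low counts these were 16, 14 and 2, against 4.25%, 2.34% and 0.423% of all genes. The human genome table gave 5 between bIP and bRG, against 2.96% of all genes. Counts halved in case both mates were counted, DESeq2's size factors in edgeR, and fits of only the 2 populations compared left each count within 1.5 times, although the last lost 11 of the single calls. With the replicate number as a block the counts were 16, 11 and 1 in the order above, against 6%, 3.17% and 0.11% of all genes. The labels do not say whether libraries of the same number belong together, and same-numbered libraries' deviations correlated at 0.0462 to 0.104 over genes. MALAT1 took more of the counts in number 1 than in number 2 of every population. Its shares were 7.52% and 3.61% in aRG, 7.33% and 4.90% in bRG, 8.57% and 6.47% in bIP and 8.51% and 6.37% in N. The cause of the changes in the numbers of calls was not tested. At this depth the fold changes of EPHA8, NTN5 and ROBO4 had standard errors above 1.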

Other observations

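Libraries with the same number shared a direction for some genes in every population. In the fit with the number as a block, 3 of the 39 genes differed by number (1.44% of all genes tested), each higher in number 2, namely EPHB1 by 1.12 (edgeR adjusted p = 0.0110), EPHA7 by 0.93 (0.0162) and NEO1 by 0.68 (0.0267). These 3 were also higher in N than in aRG. EPHA3 was higher in number 2 in the 3 progenitor populations and lower in N, and SLIT2 was lower in number 2 in all 4 populations.

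Markers of other forebrain cells were low in these libraries. The 5 interneuron markers summed to 3.29 to 16 CPM, the 4 Cajal-Retzius markers to 14.6 to 64.6, the 4 oligodendrocyte precursor markers to 3.19 to 18.0 and the 3 floor plate markers to 5.16 to 11.9. The 4 apical radial glia markers summed to 317 and 350.0 CPM in aRG, 262 and 239.7 in bRG, 234 and 196 in bIP and 124 and 60.6 in N. EPHA2 and EPHB4 shared the order of these sums, as did the means of PROM1, PARD3 and CRB2. CRB1 did not, with its highest mean in bIP (108 CPM, against 103 in aRG and 62.6 in bRG).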
